A study of Mus musculus with 10 samples.

Results

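Transcripts of 38 enzymes that oxidise pyruvate, ketone bodies and branched-chain amino acids, or that run the citric acid cycle, were followed in the gastrocnemius (a calf muscle) of 10 male NMRI mice, an outbred stock. Each enzyme was taken from the probe sets annotated with its symbol alone, and of several such probe sets the brightest, by its mean across the 10 mice, stood for the gene. All 38 were found among 22180 genes measured in this way. The control group (n = 5) ate a natural-ingredient diet whose carnitine content was under 5 mg per kg. Mice of the carnitine group (n = 5) received that diet plus 1000 mg L-carnitine per kg. The full study held 60 mice, 3 weeks old on entry and kept 5 to a cage, and 10 from each diet were sampled at 9, at 15 and at 18 months. The labels leave the age of the array mice unstated, so age may differ between arrays and was not part of any fit. The muscle piece was 30 mg of mixed tissue, and the study asked how lifelong carnitine feeding affects the muscle transcriptome at advanced age.

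Acetyl-CoA, made from pyruvate by the pyruvate dehydrogenase complex or from ketone bodies and amino acids, is condensed with oxaloacetate by citrate synthase and oxidised in the citric acid cycle, which passes electrons to the respiratory chain. Leucine, isoleucine and valine are first transaminated and then decarboxylated by a complex built like pyruvate dehydrogenase, and muscle is a main site of that first step. Slow-twitch fibres, which make the slow myosin heavy chain encoded by Myh7, hold more mitochondria than the glycolytic fast fibres that fill most of the mouse gastrocnemius. Bulk RNA holds all fibres of the piece, so fewer fibres of a kind and less transcript per fibre cannot be told apart here.

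Values are RMA log2 intensities as deposited, differences are carnitine minus control on that scale, and p-values are two-sided from limma fitted over all genes. Replicate arrays are labelled as separate samples, the labels do not say which cage each came from, and 10 arrays limit the precision. The defining muscle genes were bright: 8 of 8 listed markers, among them Acta1, Ckm and Mylpf, were measured, with a mean over the list of 12.95 ± 0.046 (SD, n = 5) for control and 13.02 ± 0.028 (SD, n = 5) for carnitine mice; later ± values are SDs of 5 mice too. The liver list (5 of 5 measured, Alb among them) averaged 5.67 and 5.55, around the median probe set level of 5.8, and the array standing apart most was control replicate 5, whose values had an interquartile range of 2.2 where the other arrays had 2.39 to 2.59. Every one of the 38 enzymes lay above that median level in each mouse.

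Myh7 spread more widely between mice than any of the enzymes did. It read 11.29, 10.2, 10.75, 10.88 and 10.3 in control replicates 1 to 5 and 9.28, 7.93, 10.73, 10.94 and 6.36 in carnitine replicates 1 to 5. Carnitine replicates 5, 2 and 1 lay below every control, while replicates 3 and 4 lay within the control range. All 8 listed slow-fibre markers had a negative difference, and the mean over them was 9.73 ± 0.405 in control and 8.63 ± 1.31 in carnitine muscle, whereas the mean over 7 fast-fibre markers was 12.86 ± 0.050 and 12.88 ± 0.058. For Myh7 the difference was -1.64 (SE 0.67, limma adjusted p = 0.712). The relation of each enzyme to Myh7 in the same mouse was therefore followed beside the diet comparison, as a slope in log2 units per log2 unit of Myh7 from a limma fit that also held the diet. By that measure the fast-fibre marker Myh2 also rose with Myh7 (slope 0.18, SE 0.053, limma adjusted p = 0.571). The other listed fast-fibre markers had slopes from -0.03 (Myl1) to 0.06 (Myh1). Whether the enzymes relate to Myh7 apart from Myh2 was not tested.

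None of the 38 enzymes passed limma's adjusted p of 0.05 for diet, as was true of all 22180 genes (0% called, smallest adjusted p 0.338). At an unadjusted p below 0.05, again 0 of the 38 were found, against 3.14% of all genes on the higher and 3.83% on the lower side. Of the 38 differences 29 were positive (76.3%), where 47.7% of all genes had a positive difference, and the median was 0.08 against -0.01 over all genes. After cyclic loess between arrays the positive differences numbered 17 and the median was -0.01. After median centring they numbered 33 and the median was 0.13, against 0.04 over all genes. The direction of the module as a whole thus depended on the scaling. In no enzyme were all mice of one diet above all of the other, against 0.505% of all genes non-overlapping with carnitine higher and 0.609% with carnitine lower. The 95% confidence intervals reached to either side of the difference by a median of 0.21, and that of Nnt extended down to -0.89.

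**Figure D1:**
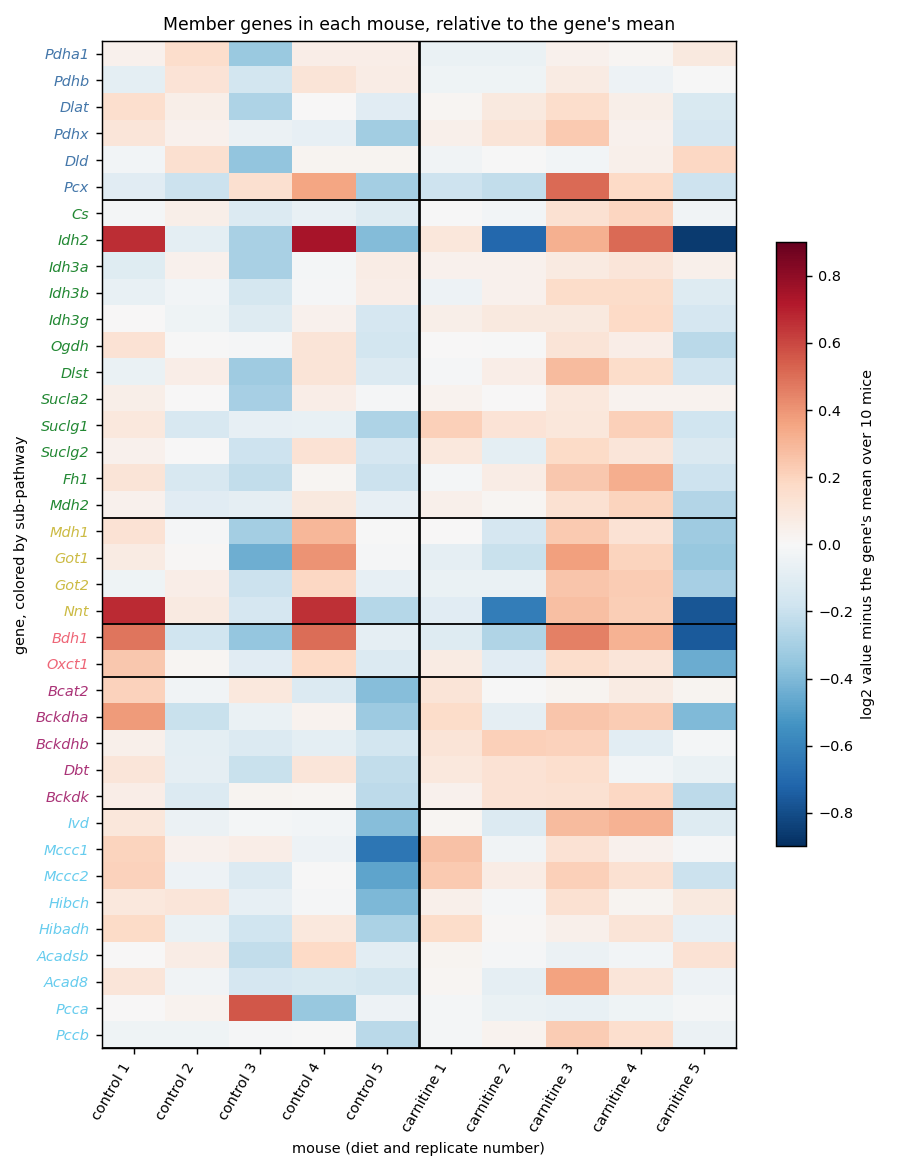
Log2 value of each of the 38 enzymes (rows, grouped and colored by sub-pathway) in each mouse (columns, 5 control then 5 carnitine), as the deviation from that gene's mean over the 10 mice. Idh2, Nnt and Bdh1 have the strongest colors, high in control replicates 1 and 4 and carnitine replicates 3 and 4, and low in carnitine replicate 5, while Idh3a, Cs and Pdhb vary little.

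The same mice stood high or low across many enzymes, in both diets. Carnitine replicate 3 was among the 3 highest mice for 30 of the 38 enzymes and carnitine replicate 4 for 20. Control replicate 5 was among the 3 lowest for 28, control replicate 3 for 25 and carnitine replicate 5 for 23. These ranks were not counted over all genes, so they do not mark a trait of these enzymes. Control replicate 5 is also the array with the narrowest interquartile range (2.2). The mean over the 38 ran from 9.98 to 10.27 in control and from 9.99 to 10.33 in carnitine muscle, so the groups overlapped over nearly their whole range.

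The slopes on Myh7 were more one-sided than the diet differences, and they also stayed short of the adjusted threshold. Of the 38 slopes 33 were positive (86.8%), against 51% of all 22179 genes in that fit, and the median was 0.06 against 0.001. Without the diet term the median was 0.02 with 30 positive slopes. At an unadjusted p below 0.05, 16 of the 38 had a positive slope (42.1%) and 0 a negative one, against 2.71% and 2.66% of all genes. No enzyme passed the adjusted p of 0.05 in limma (lowest 0.245, for Idh2), which 0.0586% of all genes did. These were 13 genes, all with positive slopes, and 7 of them are on the slow-fibre list, among them Atp2a2 (slope 0.69) and Tnnc1 (0.84). The enzymes were read on the same arrays, so the 38 slopes are not independent of one another.

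**Figure D2:**
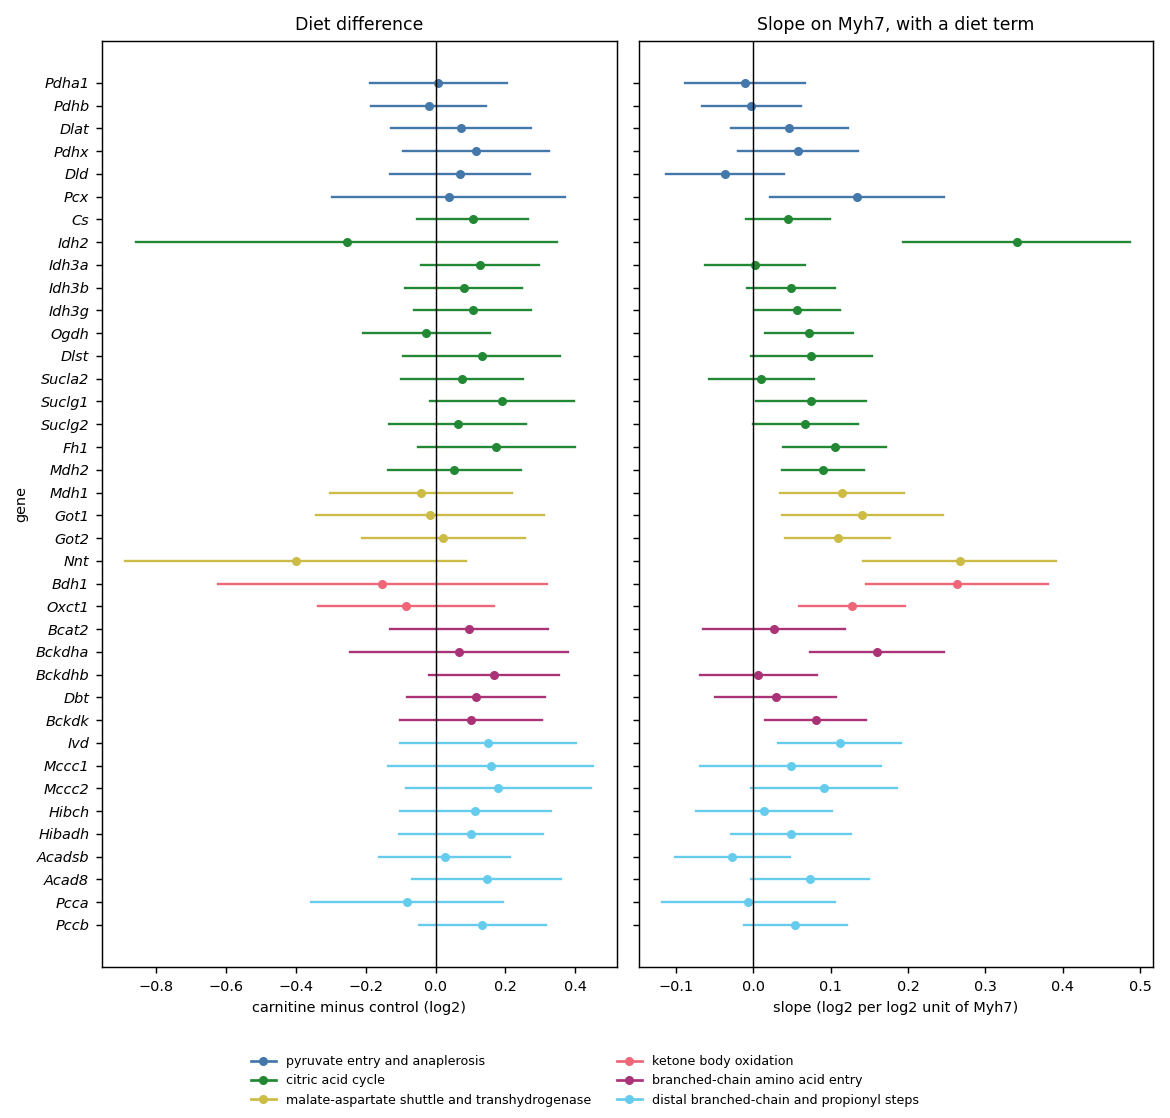
Left, carnitine minus control for each enzyme in log2 units with its 95% confidence interval; right, slope on Myh7 with its 95% confidence interval from the fit with a diet term, both colored by sub-pathway. All 38 diet intervals include 0, while Idh2, Nnt and Bdh1 have the steepest slopes at 0.34, 0.27 and 0.26.

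Proximal promoters are given for the 4 enzymes with the smallest p for the slope on Myh7 among those with a single RefSeq promoter entry, and for Pdhb, whose p was the largest of these, as a member with a slope near 0. RefSeq (GRCm38.p6) listed 45 promoter windows for 35 of the 38 enzymes, each from 250 bases before to 50 bases after the start of the gene. The windows shown are chr7:80115301-80115600 on the minus strand (Idh2), chr15:4026178-4026477 on the plus strand (Oxct1), chr7:25658712-25659011 on the minus strand (Bckdha), chr5:135778399-135778698 on the plus strand (Mdh2) and chr14:8172943-8173242 on the minus strand (Pdhb), written 5′ to 3′ along the gene. Capitals mark the 1 match among the 4 motifs searched, the cyclic AMP response element in Mdh2.
Idh2: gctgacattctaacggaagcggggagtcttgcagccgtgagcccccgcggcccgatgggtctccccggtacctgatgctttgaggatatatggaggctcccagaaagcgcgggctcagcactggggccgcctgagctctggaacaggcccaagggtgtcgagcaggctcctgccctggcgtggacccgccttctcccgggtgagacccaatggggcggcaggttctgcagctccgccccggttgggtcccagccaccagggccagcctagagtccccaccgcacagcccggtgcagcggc
Oxct1: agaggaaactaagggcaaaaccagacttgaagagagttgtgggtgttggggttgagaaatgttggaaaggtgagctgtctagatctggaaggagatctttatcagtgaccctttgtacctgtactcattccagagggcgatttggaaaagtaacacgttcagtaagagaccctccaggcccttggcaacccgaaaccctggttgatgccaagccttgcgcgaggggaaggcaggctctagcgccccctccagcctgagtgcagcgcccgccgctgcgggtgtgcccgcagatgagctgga
Bckdha: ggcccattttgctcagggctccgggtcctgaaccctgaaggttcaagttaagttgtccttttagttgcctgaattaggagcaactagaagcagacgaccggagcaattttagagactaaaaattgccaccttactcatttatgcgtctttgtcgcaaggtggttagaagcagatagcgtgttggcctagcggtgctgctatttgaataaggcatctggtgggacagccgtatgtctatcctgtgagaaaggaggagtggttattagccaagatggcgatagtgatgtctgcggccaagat
Mdh2: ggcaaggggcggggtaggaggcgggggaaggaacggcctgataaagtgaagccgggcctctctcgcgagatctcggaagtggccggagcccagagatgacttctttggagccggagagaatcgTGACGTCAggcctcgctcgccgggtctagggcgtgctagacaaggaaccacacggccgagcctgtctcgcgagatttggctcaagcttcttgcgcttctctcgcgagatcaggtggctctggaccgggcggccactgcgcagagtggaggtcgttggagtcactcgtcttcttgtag
Pdhb: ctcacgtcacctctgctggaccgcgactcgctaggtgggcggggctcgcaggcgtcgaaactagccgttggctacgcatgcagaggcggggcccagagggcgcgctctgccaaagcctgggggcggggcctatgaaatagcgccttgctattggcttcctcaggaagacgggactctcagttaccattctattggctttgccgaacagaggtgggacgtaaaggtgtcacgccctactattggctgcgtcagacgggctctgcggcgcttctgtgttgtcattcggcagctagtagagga

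The motifs were searched on both strands as exact letters. AAGGTCA, the half-site of estrogen-related receptors, occurred in the windows of Got1 and Ogdh and in 4.72% of all 32851 promoter windows. The cyclic AMP response element TGACGTCA occurred in Mdh2 and Ogdh and in 1.79% of all windows, and the Ets motif CCGGAAG in Dlst, Idh3b and Idh3g and in 8.86%. CTAAAAATA, a MEF2 motif, was found in 0 of the 45 windows and in 0.517% of all. The 5 windows shown thus share none of these letters, and their GC content ran from 48.0% in Bckdha to 68.3% in Idh2. The patterns overlap none of the others, a match is only a description of the sequence, and factors that accept other letters are not covered by this search.

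None of the pyruvate dehydrogenase genes differed between diets by more than 0.12, or had a slope on Myh7 above 0.06. This complex turns pyruvate into acetyl-CoA: Pdha1 and Pdhb encode the decarboxylase E1, Dlat the acetyltransferase E2, Pdhx the protein that binds E3 to the core, and Dld the dehydrogenase E3, which the 2-oxoglutarate and branched-chain complexes share. Differences ran from -0.02 (Pdhb) to 0.12 (Pdhx) over this sub-pathway, with 5 of 6 positive (1 of 6 after cyclic loess), and its mean was 10.31 ± 0.11 in control and 10.35 ± 0.087 in carnitine muscle. Pdhx read 9.58, 9.51, 9.42, 9.4 and 9.16 in control and 9.52, 9.59, 9.71, 9.51 and 9.32 in carnitine replicates 1 to 5, a difference of 0.12 (SE 0.098, limma adjusted p = 0.758). Dlat read 10.04, 9.94, 9.61, 9.89 and 9.79 in control and 9.91, 9.98, 10.05, 9.94 and 9.75 in carnitine, a difference of 0.07 (SE 0.093, limma adjusted p = 0.840) that was -0.03 after cyclic loess. In both genes the groups overlapped, and the lowest mouse was a control.

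The slopes of Pdha1, Pdhb and Dld on Myh7 were -0.01, -0.003 and -0.04, and none of them had an unadjusted p below 0.05. Pdhb, for example, stayed between 11.46 and 11.75 in all mice, while Myh7 ran from 6.36 to 11.29. Pdha1 ran from 11.35 to 11.5 in carnitine muscle and from 11.08 to 11.57 in control, where replicate 3 was the low one. Pcx, pyruvate carboxylase, which refills the cycle with oxaloacetate, was the member of this group with an unadjusted p below 0.05 for the slope. It read 8.08, 7.99, 8.33, 8.54 and 7.88 in control and 8, 7.96, 8.69, 8.36 and 8 in carnitine replicates 1 to 5, with a slope of 0.13 (SE 0.052, limma adjusted p = 0.810). The highest Pcx values came from carnitine replicate 3 and control replicate 4.

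**Figure D3:**
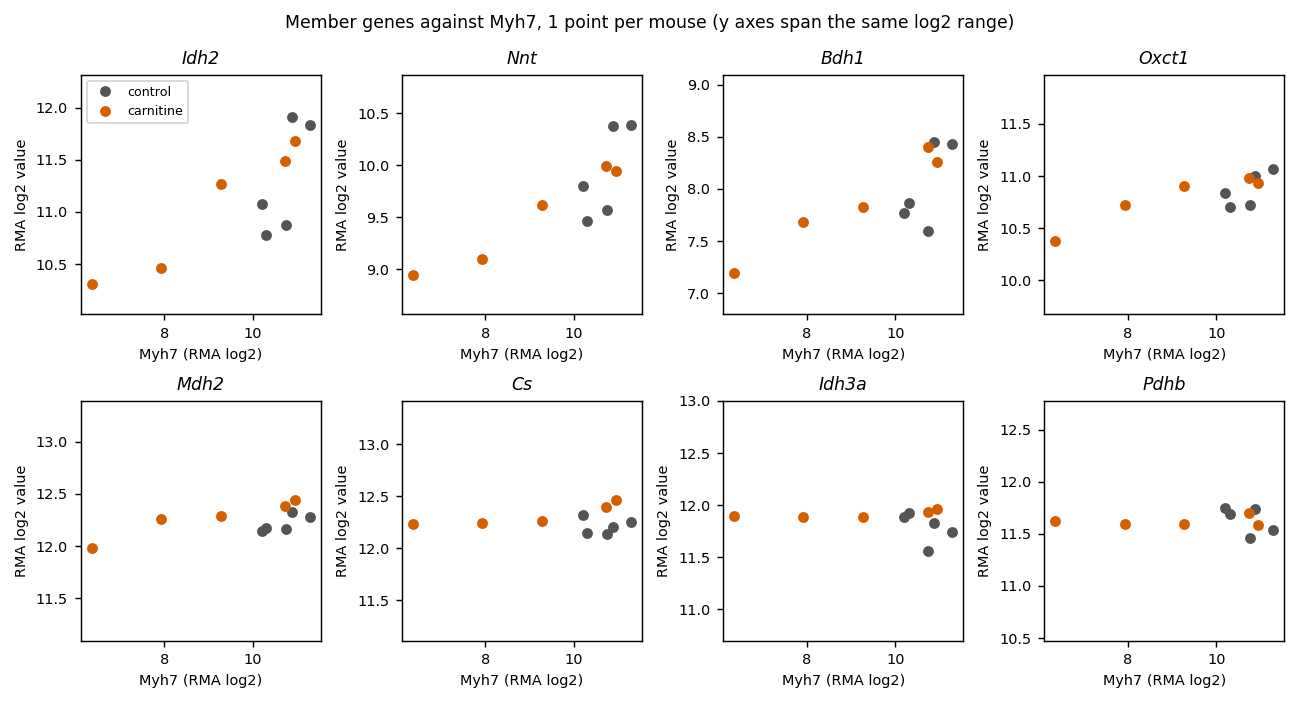
Log2 value of 8 enzymes against the Myh7 log2 value, 1 point per mouse (grey control, orange carnitine, y axes of equal span). Idh2, Nnt, Bdh1 and Oxct1 are lowest in carnitine replicate 5, where Myh7 is 6.36, whereas Cs, Idh3a and Pdhb stay nearly level along the Myh7 axis.

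In the citric acid cycle 10 of 12 enzymes had a positive diet difference and all 12 a positive slope on Myh7, 6 of them with an unadjusted p below 0.05 (Idh2, Idh3g, Ogdh, Suclg1, Fh1 and Mdh2). Over all genes the shares were 47.7%, 51% and 2.71%. After cyclic loess 6 of the 12 diet differences were positive, and the difference of the cycle's mean was -0.02 in place of 0.07. The cycle's mean read 11.40, 11.29, 11.14, 11.42 and 11.20 in control and 11.36, 11.29, 11.48, 11.51 and 11.14 in carnitine replicates 1 to 5. It averaged 11.29 ± 0.12 and 11.36 ± 0.15, a difference within the spread of either group. Citrate synthase Cs, the entry enzyme and a common measure of mitochondrial content, was 12.21 ± 0.075 in control and 12.32 ± 0.10 in carnitine muscle, with a slope of 0.04 (SE 0.025).

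Of the mitochondrial isocitrate dehydrogenases, Idh2 encodes the NADP-dependent enzyme, which makes NADPH in the matrix, and Idh3a, Idh3b and Idh3g the subunits of the NAD-dependent enzyme of the cycle. Idh2 read 11.83, 11.08, 10.88, 11.91 and 10.78 in control and 11.27, 10.46, 11.49, 11.68 and 10.31 in carnitine replicates 1 to 5. Its values were high in the mice with much Myh7 and lowest in carnitine replicates 5 and 2, while control replicates 3 and 5 lay below carnitine replicate 1, which had less Myh7 than either. The slope was 0.34 (SE 0.068, unadjusted p = 0.000219, limma adjusted p = 0.245), and the diet difference was -0.25 (SE 0.28, limma adjusted p = 0.812). With 1 array left out that difference ran from -0.41, without carnitine replicate 4, to -0.07, without carnitine replicate 5. Idh3a had a slope of 0.002 (SE 0.030) and read 11.89 to 11.96 in all carnitine mice, with a control range of 11.56 to 11.92. The slopes of Idh3b and Idh3g were 0.05 (SE 0.026) and 0.06 (SE 0.026), and whether the slopes of these genes differ from that of Idh2 was not tested.

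Succinyl-CoA ligase and fumarase held the largest positive diet differences of the cycle. Suclg1 encodes the alpha subunit that pairs with the ATP-forming Sucla2 or the GTP-forming Suclg2. It read 9.63, 9.39, 9.46, 9.47 and 9.26 in control and 9.75, 9.66, 9.64, 9.75 and 9.36 in carnitine replicates 1 to 5, a difference of 0.19 (SE 0.097, 95% confidence interval -0.02 to 0.40, limma adjusted p = 0.719). Of the carnitine mice, 4 lay above every control and replicate 5 lay below 4 of the 5 controls. Fh1, fumarase, read 11.07, 10.81, 10.73, 10.97 and 10.76 in control and 10.94, 11.02, 11.2, 11.28 and 10.77 in carnitine, a difference of 0.17 (SE 0.105, limma adjusted p = 0.721). Its slope on Myh7 was 0.105 (SE 0.031, limma adjusted p = 0.571), and the groups overlapped.

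Sucla2 and Suclg2 differed by 0.08 (SE 0.081) and 0.06 (SE 0.091), and Dlst, the E2 of the 2-oxoglutarate dehydrogenase complex, by 0.13 (SE 0.10). Ogdh, the E1 of that complex, stood at -0.03 (SE 0.085) with a slope of 0.07 (SE 0.026, limma adjusted p = 0.776). Mdh2, the mitochondrial malate dehydrogenase, read 12.28, 12.14, 12.16, 12.33 and 12.17 in control and 12.29, 12.26, 12.38, 12.44 and 11.98 in carnitine replicates 1 to 5. Carnitine replicates 4 and 3 were the highest of all mice and replicate 5 the lowest, and the slope was 0.09 (SE 0.024, limma adjusted p = 0.538).

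The malate-aspartate shuttle carries the electrons of cytosolic NADH into mitochondria. The 3 of its enzymes grouped here, Mdh1, Got1 and Got2, had diet differences between -0.04 and 0.02 and positive slopes on Myh7. Mdh2, which also serves the shuttle, was counted with the cycle above and had a diet difference of 0.05 (SE 0.089). Mdh1, the cytosolic malate dehydrogenase, read 11.76, 11.62, 11.33, 11.93 and 11.63 in control and 11.64, 11.48, 11.87, 11.76 and 11.31 in carnitine replicates 1 to 5. Got2, the mitochondrial aspartate aminotransferase, read 12.2, 12.3, 12.05, 12.43 and 12.17 in control and 12.18, 12.18, 12.49, 12.47 and 11.94 in carnitine. Both were high in control replicate 4 and carnitine replicates 3 and 4, and low in control replicate 3 and carnitine replicate 5, as was the cytosolic aminotransferase Got1 (11.3 to 12.14 in control, 11.4 to 12.11 in carnitine). The diet differences were -0.04 in Mdh1 (SE 0.12), 0.02 in Got2 (SE 0.11) and -0.02 in Got1 (SE 0.15). The slopes on Myh7 were 0.115 in Mdh1 (SE 0.037), 0.11 in Got2 (SE 0.031) and 0.14 in Got1 (SE 0.048), with limma adjusted p values from 0.571 to 0.665.

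Nnt, the transhydrogenase of the inner mitochondrial membrane that makes NADPH from NADH, had the largest diet difference of the 38 enzymes in size. It read 10.39, 9.8, 9.57, 10.38 and 9.46 in control and 9.62, 9.1, 9.99, 9.94 and 8.95 in carnitine replicates 1 to 5. Control replicates 1 and 4 were the highest mice and carnitine replicates 5 and 2 the lowest, with the other 6 mice interleaved. The means were 9.92 ± 0.44 and 9.52 ± 0.48, a difference of -0.40 (SE 0.23, 95% confidence interval -0.89 to 0.087, limma adjusted p = 0.721). The difference stayed negative when any 1 array was left out, from -0.52 to -0.26. Its slope on Myh7 was 0.27 (SE 0.058, unadjusted p = 0.000456, limma adjusted p = 0.306). Idh2 and Nnt, the pair of NADPH-forming enzymes among the members, thus had the steepest slopes together with Bdh1.

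**Figure D4:**
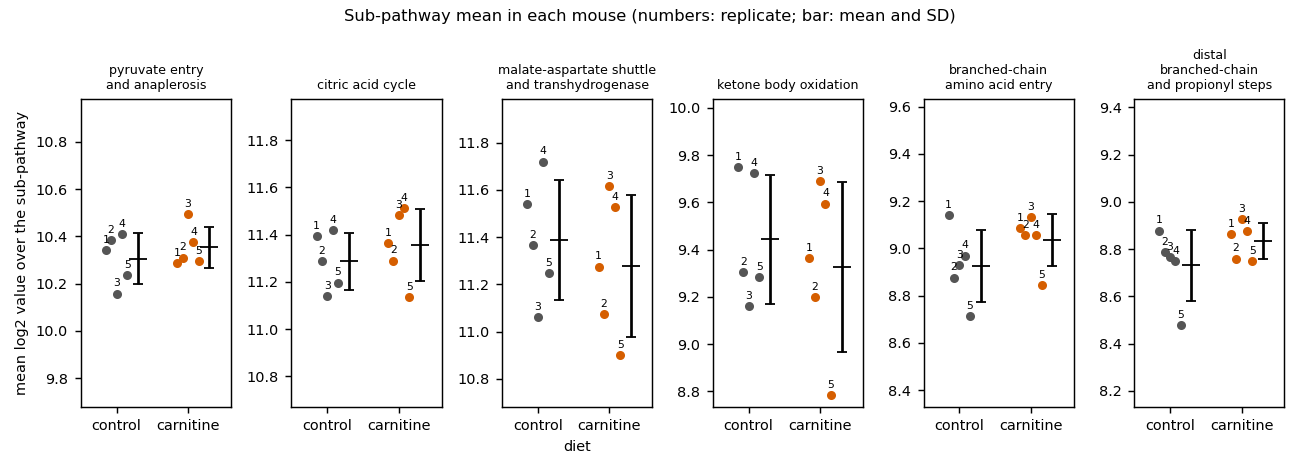
Mean log2 value over the members of each sub-pathway in each mouse (points, numbered by replicate), with the group mean and SD beside them, on y axes of equal span. The ketone and shuttle means spread most, from 8.79 to 9.75 and from 10.90 to 11.72, and in all 6 panels the diets overlap.

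Both enzymes of ketone body oxidation had a negative diet difference and a positive slope on Myh7. Bdh1, the mitochondrial enzyme that turns beta-hydroxybutyrate into acetoacetate, read 8.43, 7.77, 7.6, 8.45 and 7.87 in control and 7.83, 7.68, 8.4, 8.26 and 7.19 in carnitine replicates 1 to 5. Oxct1, which activates acetoacetate to its CoA ester and is the committed step of ketone use, read 11.07, 10.84, 10.72, 11, 10.7 in control and 10.9, 10.72, 10.98, 10.93 and 10.38 in carnitine. In both, control replicates 1 and 4 and carnitine replicates 3 and 4 were the highest and carnitine replicate 5 was the lowest, and the groups overlapped. The diet differences were -0.15 in Bdh1 (SE 0.22) and -0.08 in Oxct1 (SE 0.12), and without carnitine replicate 5 both turned positive, to 0.02 in each. The slopes were 0.26 in Bdh1 (SE 0.055, limma adjusted p = 0.247) and 0.13 in Oxct1 (SE 0.032, limma adjusted p = 0.426). The ketone mean was 9.45 ± 0.27 in control and 9.33 ± 0.36 in carnitine muscle, and its difference of -0.12 was -0.21 after cyclic loess.

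The entry steps of branched-chain amino acid oxidation had positive diet differences in the deposited values, from 0.07 to 0.17, and 0 of 5 passed the test. Their mean was 8.93 ± 0.15 in control and 9.04 ± 0.11 in carnitine muscle, with control replicate 5 the lowest at 8.71. The difference of that mean, 0.11, was 0.06 without control replicate 5 and 0.02 after cyclic loess. In each of these settings 4 of the 5 were positive and Bckdha was negative (-0.006 and -0.04). Bckdhb, the E1 beta subunit of the branched-chain 2-oxoacid dehydrogenase, read 8.71, 8.58, 8.54, 8.58 and 8.5 in control and 8.78, 8.88, 8.87, 8.57 and 8.65 in carnitine replicates 1 to 5. Carnitine replicates 1, 2 and 3 lay above every control, and the difference was 0.17 (SE 0.087, 95% confidence interval -0.02 to 0.35, limma adjusted p = 0.719). Dbt, the E2 of the complex, read 8.96, 8.77, 8.65, 8.96 and 8.63 in control and 8.95, 8.98, 9, 8.83 and 8.79 in carnitine, a difference of 0.12 (SE 0.092, limma adjusted p = 0.750). Bcat2, the mitochondrial aminotransferase that starts the pathway, stood at 7.38 ± 0.23 and 7.47 ± 0.048.

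Within the branched-chain complex and its regulator, Bckdha and Bckdk had an unadjusted p below 0.05 for the slope on Myh7. Bckdha, the E1 alpha subunit that the kinase phosphorylates, read 9.64, 9.06, 9.2, 9.29 and 8.93 in control and 9.42, 9.18, 9.51, 9.49 and 8.86 in carnitine replicates 1 to 5, with a slope of 0.16 (SE 0.040, unadjusted p = 0.00149, limma adjusted p = 0.431). Bckdk, that inhibitory kinase, read 10.76, 10.58, 10.73, 10.72 and 10.47 in control and 10.74, 10.83, 10.84, 10.89 and 10.47 in carnitine, with a slope of 0.08 (SE 0.030, limma adjusted p = 0.799). The slopes of Bckdhb, Dbt and Bcat2 were 0.01, 0.03 and 0.03, with unadjusted p values from 0.446 to 0.861, and the difference between these slopes and that of Bckdha was not tested.

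Among the 9 enzymes of the later steps, 8 had a positive diet difference, and the exception was Pcca. The mean over the 9 was 8.73 ± 0.15 in control and 8.84 ± 0.077 in carnitine muscle, and the low control was replicate 5 at 8.48. Without that array the difference of the mean was 0.04 in place of 0.10. After cyclic loess it was 0.007, with 6 of the 9 positive and Hibadh (-0.001) and Acadsb (-0.08) turned negative. In leucine breakdown Ivd encodes isovaleryl-CoA dehydrogenase, and Mccc1 and Mccc2 the subunits of methylcrotonyl-CoA carboxylase. Ivd read 8.33, 8.17, 8.21, 8.2 and 7.84 in control and 8.24, 8.1, 8.51, 8.54 and 8.11 in carnitine replicates 1 to 5, and Mccc2 read 8.3, 8.05, 7.97, 8.09 and 7.62 in control and 8.33, 8.16, 8.31, 8.23 and 7.9 in carnitine. Their diet differences were 0.15 (SE 0.12) and 0.18 (SE 0.12), with control replicate 5 the lowest mouse in each. Ivd was the 1 gene of the 9 with an unadjusted p below 0.05 for the slope on Myh7 (0.11, SE 0.037, limma adjusted p = 0.625), and the slope of Mccc2 was 0.09 (SE 0.044, limma adjusted p = 0.945).

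In valine and isoleucine breakdown, Acad8 encodes isobutyryl-CoA dehydrogenase, Acadsb the short branched-chain acyl-CoA dehydrogenase, Hibch the hydrolase that forms 3-hydroxyisobutyrate, and Hibadh the dehydrogenase that oxidises it. Acad8 read 8.38, 8.24, 8.12, 8.13 and 8.11 in control and 8.29, 8.19, 8.63, 8.38 and 8.22 in carnitine replicates 1 to 5, a difference of 0.15 (SE 0.099, limma adjusted p = 0.730). Acadsb, Hibch and Hibadh differed by 0.03, 0.11 and 0.10, and Mccc1 by 0.16, each with overlapping groups. Propionyl-CoA carboxylase, where both amino acids meet on the way to succinyl-CoA, is encoded by Pcca and Pccb, and its subunits had opposite signs. Pccb read 9, 9, 9.03, 9.04 and 8.8 in control and 9.02, 9.07, 9.27, 9.19 and 8.99 in carnitine, a difference of 0.13 (SE 0.085, limma adjusted p = 0.723). Pcca had a difference of -0.08 (SE 0.13), with control replicate 3 at 10.3 against 9.4 to 9.77 in the other 4 controls and 9.67 to 9.72 in all carnitine mice. Without that control the difference of Pcca was 0.05.

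The correlations with Myh7 over the 10 mice, taken without the diet term, ran from -0.42 (Dld) to 0.85 (Nnt) in 38 relations, and 9 of the 38 were at 0.6 or above. The permutation p values given here are two-sided from 100000 resamples and are not adjusted, and the adjusted p is that of the slope above. Pearson's r was 0.85 in Nnt (permutation p = 0.00037, Spearman's rho 0.82, permutation p = 0.0062), and 0.80 in Idh2 (permutation p = 0.00235, rho 0.82, permutation p = 0.00608). In Oxct1 r was 0.82 (permutation p = 0.00687, rho 0.74, permutation p = 0.0181), and in Bdh1 it was 0.79 (permutation p = 0.00211, rho 0.73, permutation p = 0.0203). Carnitine replicates 5 and 2, the mice farthest from the median of Myh7, were then left out. Over the other 8 mice r fell to 0.65 in Nnt (exact permutation p = 0.0757), 0.50 in Idh2 (0.203), 0.38 in Oxct1 (0.354) and 0.60 in Bdh1 (0.103), so that reaching an exact permutation p of 0.05 rests on those mice, although each r stayed positive. With any 1 mouse left out, the slopes with the diet term ran from 0.32 to 0.43 in Idh2, 0.25 to 0.34 in Nnt, 0.25 to 0.29 in Bdh1 and 0.10 to 0.15 in Oxct1. Each diet holds only 5 mice, too few for an r within a diet. The slopes above carry the diet term and so use only the Myh7 differences between mice of the same diet. The SD of Myh7 was 0.445 in control and 1.93 in carnitine mice, so these slopes rest mainly on the 5 carnitine mice.

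When Myh7 was put into the fit as a covariate, an alternative chosen after the data were seen, 34 of the 38 diet differences were positive, against 47.8% of all genes, with a median of 0.18 against -0.01. At an unadjusted p below 0.05, 12 of the 38 were higher and 0 lower, against 3.25% of all genes on the higher side, and 0 passed the adjusted p in limma (0% of all genes, lowest adjusted p 0.859). Idh2 went from -0.25 to 0.30 (SE 0.20), Bdh1 from -0.15 to 0.28 (SE 0.16), Oxct1 from -0.08 to 0.13 (SE 0.096) and Nnt from -0.40 to 0.04 (SE 0.17). Fh1 stood at 0.35 (SE 0.092), Ivd at 0.33 (SE 0.11) and Suclg1 at 0.31 (SE 0.099). Each of these values equals the difference without Myh7 minus the slope times the Myh7 difference of -1.64. The positive counts and the sign changes therefore follow from the differences and slopes given above and are not a further result. Myh7 itself was lower on average in carnitine muscle and 3 of the 5 carnitine mice lay outside the control range, so this fit extends the controls beyond their measured Myh7, and diet and Myh7 can be told apart only in part.

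**Figure D5:**
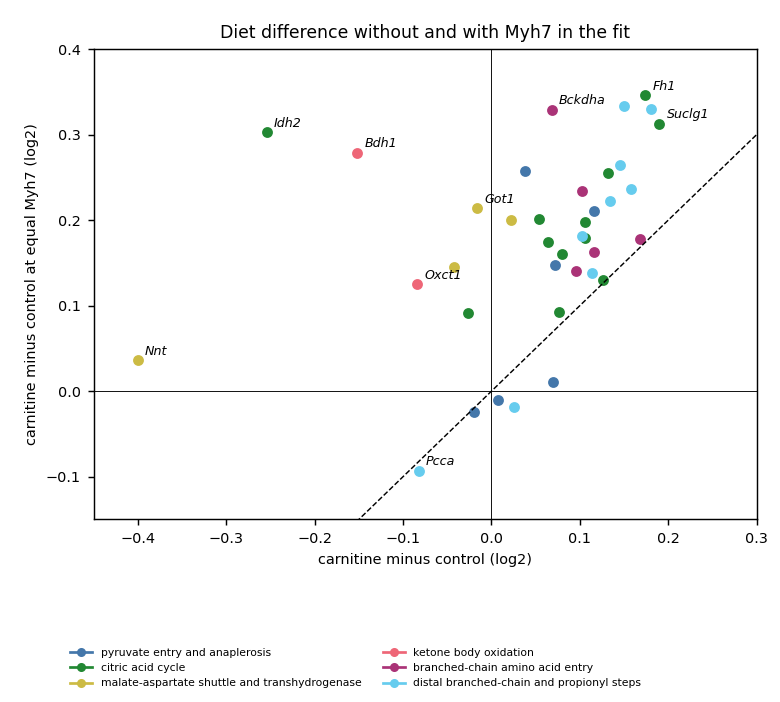
Carnitine minus control in log2 units without Myh7 in the fit (x axis) and with Myh7 as a covariate (y axis), 1 point per enzyme, colored by sub-pathway, with the line of equality dashed. Idh2, Bdh1, Oxct1 and Nnt move from negative values to 0.30, 0.28, 0.13 and 0.04, while the E1 subunit genes of pyruvate dehydrogenase and Pcca stay near the line. How far a point lies from the line follows from its slope on Myh7.

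Of 61 other genes of these pathways 55 were measured, 37 with a positive and 18 with a negative diet difference, and 0 passed limma's adjusted threshold (lowest adjusted p 0.712). At an unadjusted p below 0.05 there were 3 higher and 2 lower, near the 3.14% and 3.83% of all genes, so these counts do not set the list apart. The genes behind them are given as values only. On the higher side stood the malic enzymes Me2 (0.30, SE 0.12) and Me1 (0.39, SE 0.17), which make pyruvate from malate, and the glutamate dehydrogenase Glud1 (0.20, SE 0.084). On the lower side stood the CoA transferase genes Oxct2b (-0.32, SE 0.11) and Oxct2a (-0.39, SE 0.16), paralogs of Oxct1 known from testis. Sdha, the flavoprotein subunit of succinate dehydrogenase, came next below (-0.17, SE 0.085) without reaching that level (limma unadjusted p = 0.0582). Oxct2b was the 1 gene of the 55 with all carnitine mice below all controls, which 0.609% of all genes showed. Oxct2a and Oxct2b lay below the median probe set level of 5.8 in both groups on average, and probes may be shared between them. On Myh7, 40 of the 55 had a positive slope (72.7%, against 51% of all genes), 11 with an unadjusted p below 0.05 (20%, against 2.71%), among them Sdhb, Echs1 and Acat1 at 0.15, 0.15 and 0.10, and 0 passed the adjusted threshold. The 3 negative ones at that level, where all genes gave 2.66%, were Pdp1, a phosphatase that activates pyruvate dehydrogenase, at -0.10, and the amino acid carriers Slc7a8 at -0.19 and Slc25a44 at -0.08. These 6 slope examples were named after their values were seen.

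Of the marker lists of other cell types, the heart list differed most relative to its spread. Its mean (4 of 4 measured) was 6.78 ± 0.095 in control and 6.56 ± 0.19 in carnitine muscle, and 4 of the 5 carnitine mice lay below every control. Its members Myh6 and Tnni3 differed by -0.44 (SE 0.16) and -0.26 (SE 0.10), each with a limma adjusted p of 0.712. The remaining members Tnnt2 and Nppa differed less, by -0.17 (SE 0.14) and -0.01 (SE 0.084). The part of the heart list's shift in the enzyme values was not tested. The mean over the endothelial list (5 of 5 measured) ran from 7.89 to 8.72 in control and from 8.14 to 8.59 in carnitine muscle, that of the macrophage list (5 of 5) from 6.10 to 6.71 and from 6.14 to 6.55, and that of the adipocyte list (5 of 6) from 6.69 to 7.15 and from 6.55 to 6.94. The fibroblast list (5 of 5) ran from 7.74 to 8.63 in control and from 8.16 to 8.83 in carnitine. Only 1 of 4 erythrocyte and 2 of 4 nerve markers were measured. Control replicate 5, low in the branched-chain means, was also the lowest mouse of the endothelial list. The same array had the narrowest interquartile range (2.2) and the highest mean of the liver list (5.99). The part of these cells, or of the array's narrower range, in the enzyme values was not tested.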

How the data were processed

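Gastrocnemius RNA of 5 control and 5 carnitine-fed mice was hybridised to Affymetrix Mouse Gene 2.0 ST arrays, 1 colour and 1 mouse per array, per the labels. The deposited values are log2 intensities that the authors made with Affymetrix Expression Console and RMA, per the submitters' processing notes. Tool versions and the genome build, not given in the sources used here, are left out. RMA adjusts the arrays to one another, so differences are relative to the other genes. The deposited values still differed in interquartile range between arrays, from 2.2 to 2.59. No raw intensities, scan batches or depth were analysed here.

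Of 34390 probe sets 23521 carried 1 gene symbol, 1814 several and 9055 none in the platform annotation, giving 22180 genes with no filter on dim probes. Suclg2 and Got2 had more than 1 probe set. Diets were compared with limma 3.58.1 in R 4.3.3 (lmFit, eBayes with an intensity trend) and Benjamini-Hochberg adjustment over all genes. The slope fit held diet and Myh7 and left Myh7 out as an outcome, which gave 22179 genes. Replicates are separate samples per the labels. The fits were tested on simulated data. Correlations were computed in Python 3.11.15.

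The members and the gene lists were chosen with earlier results of these data known. Genes named with values per mouse were, in each sub-pathway, the pair with the smallest unadjusted p for diet and the pair with the smallest for the slope, and for the other pathway genes the 3 with the smallest p in each direction; further members are given by difference, slope or range. Some listed pathway genes are not reported here. Promoter entries of Idh3a, Nnt and Dbt were not used here. The alternatives tried were the replicate block, median centring, cyclic loess, averaging all probe sets of a gene, all probe sets tested, a filter on dim genes, array weights, eBayes without a trend or robust, an adjusted p below 0.1, 5 slow genes in place of Myh7, no diet term, Myh7 as a covariate (added after seeing the data), and each array left out.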

Additional observations from a re-analysis of the deposited data

Results flagged for a closer look

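Among 78 groups of 5 mice (the 38 enzymes and Myh7, in each diet) 4 had a mouse that stood apart from the others of its diet by Dixon's 95% criterion, where chance gives about 1 in 20. All 4 were low values. Pdha1 was 11.08 in control replicate 3 against 11.45 to 11.57 in the other controls, and Sucla2 was 10.72 in the same mouse against 11.01 to 11.08. Suclg1 was 9.36 in carnitine replicate 5, which also had the lowest Myh7, against 9.64 to 9.75 in the other carnitine mice. Pccb was 8.8 in control replicate 5 against 9 to 9.04 in the other controls. The count of 4 in 78 is near the 1 in 20 that chance gives, so it does not set these mice apart. No cause of the low values was tested.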

How the results depend on the processing

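No member passed limma's adjusted p of 0.05 for diet or slope under any alternative run. With 5 mice per diet and no raw signals, small differences could not be resolved. The half-width of the 95% interval had a median of about 0.21 and was 0.60 at its widest. Larger differences were not thereby resolved: Nnt at -0.40 and Idh2 at -0.25 had intervals that include 0. Where a value turned sign the cause was not tested. Over the arrays left out in turn, positive diet differences numbered 26 to 33, their median was 0.04 to 0.12, the median slope was 0.055 to 0.079, and genes called among all were 0 to 1, the 1 without control replicate 2. The lowest limma adjusted p of a slope was 1.0 without carnitine replicate 5, 0.0702 without control replicate 4 and 0.0776 without control replicate 3. Cyclic loess gave 17 positive differences and median centring 33, and without the diet term the median slope was 0.02.

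Same-numbered mice of the diets correlated at 0.236, 0.012, -0.132, 0.23 and 0.105 in their deviations. As 3 of the 5 exceed 0.1 and not every one, pairing by number was not established, and it was not excluded. With the replicate block 0 genes were called, the lowest limma adjusted p was 0.605 for diet and 0.675 for slope, and 30 slopes were positive. With the block the slope changed sign in Pdha1 (0.056), Pdhb (0.032), Dld (0.026), Bcat2 (-0.062), Bckdhb (-0.004), Dbt (-0.013), Mccc1 (-0.105), Hibch (-0.055) and Hibadh (-0.012).

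Median centring moved the median of all genes to 0.042 (0.002 after loess) and turned the difference of Pdhb to 0.030, Ogdh to 0.024, Mdh1 to 0.008 and Got1 to 0.034. Cyclic loess turned it in Pdha1 (-0.085), Dlat (-0.033), Dld (-0.023), Pcx (-0.051), Idh3b (-0.001), Sucla2 (-0.020), Suclg2 (-0.042), Mdh2 (-0.030), Got2 (-0.062), Bckdha (-0.038), Hibadh (-0.001) and Acadsb (-0.079), and the slope of Pdhb to 0.000. Myh7 as a covariate turned Pdha1 (-0.010), Idh2 (0.303), Ogdh (0.091), Mdh1 (0.145), Got1 (0.214), Nnt (0.036), Bdh1 (0.279), Oxct1 (0.125) and Acadsb (-0.018). Without the diet term slopes turned in Pdhb (0.002), Idh3a (-0.021), Sucla2 (-0.007), Bckdhb (-0.026), Dbt (-0.001), Hibch (-0.011) and Pcca (0.010), and with 5 slow-fibre genes in Idh3a (-0.004) and Bckdhb (-0.001).

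Leaving out 1 array moved the difference across 0 in Pdha1 (-0.074 to 0.048), Pdhb (-0.064 to 0.009), Dld (-0.009 to 0.116), Pcx (-0.084 to 0.132), Ogdh (-0.07 to 0.032), Mdh1 (-0.123 to 0.033), Got1 (-0.127 to 0.083), Got2 (-0.038 to 0.1), Bdh1 (-0.284 to 0.019), Oxct1 (-0.134 to 0.017), Bckdha (-0.006 to 0.176), Acadsb (-0.026 to 0.074) and Pcca (-0.177 to 0.048), and of the ketone mean (-0.209 to 0.018). It moved the slope across 0 in Pdha1 (-0.02 to 0.017), Pdhb (-0.018 to 0.004), Idh3a (-0.006 to 0.006) and Bckdhb (-0.035 to 0.047).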
